A study of Homo sapiens with 12 samples.

Results

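Genes that are usually expressed in neurons and neuroendocrine cells, namely UCHL1, NREP, CPE, NEFH, NTS and LMO3, were followed through 2 human cell lines in which the RNA-binding protein NUDT21 had been lowered by RNA interference. They are 6 of the 17518 genes of the count table, and all 6 were among the 13625 genes with enough counts to be tested. They were chosen by their change in 1 of the lines, SKM-1, after knockdown: NTS, NEFH and LMO3 were far higher there, and UCHL1, NREP and CPE far lower. Values of SKM-1 are therefore a description without a test, and only the other line, MUTZ-1, holds tests of these genes.

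The RNA sequencing covered 4 groups of 3 libraries, all from human cells that the labels call cells of myelodysplastic syndrome, a clonal disorder of blood formation. MUTZ-1 cells carried a short hairpin RNA against NUDT21 (shNUDT21) or a control hairpin, and so did SKM-1 cells. The column names of the tables carry 1 hairpin name, so the knockdown of each line rests on 1 hairpin as far as they show, and no other allele or agent is given. The tissue label is marrow for both lines, and nothing in the labels says that the 3 libraries of a group were grown as separate cultures. The p-values therefore weigh differences only against the spread among these libraries, and that spread may be technical.

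NUDT21 encodes a subunit of cleavage factor Im, a complex that binds pre-mRNA near poly(A) sites and helps to set the 3' end of transcripts. The 6 genes work in different parts of a nerve or secretory cell. UCHL1 is a ubiquitin C-terminal hydrolase that is abundant in neurons and frees ubiquitin from small adducts. NREP, also known as P311, is a small protein of regenerating neurons that is known to raise TGF-beta levels. NEFH is the heavy chain of neurofilaments, which it forms together with NEFL, NEFM and INA. CPE is a carboxypeptidase of secretory granules that trims prohormones after convertases such as PCSK1 and PCSK2 have cut them, and NTS is the precursor of such a peptide, neurotensin. LMO3 is a LIM-only transcription cofactor, a relative of the blood cell factor LMO2, and proteins of this family bind LDB1.

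On the GRCh38.p14 build, RefSeq places UCHL1 at chr4:41256928-41268455 (plus strand), CPE at chr4:165379008-165498547 (plus), NREP at chr5:111728802-111976932 (minus), NTS at chr12:85874295-85882992 (plus), LMO3 at chr12:16548372-16610174 (minus) and NEFH at chr22:29480218-29491390 (plus). The 6 genes thus lie on 4 chromosomes, and those that share one are far apart. In GENCODE, LMO3 overlaps MGST1, a glutathione transferase gene on the opposite strand. The library kit keeps the strand of the RNA, but whether the counting used it is not given in the sources used here.

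The starts of UCHL1, CPE and NTS are shown because RefSeq gives each of them a single promoter window, 250 bases before the start to 50 bases after it, so that the sequence can be set beside a level per gene. UCHL1 and CPE stand for the genes that were lower in SKM-1 after knockdown and NTS for those that were higher. Capitals mark matches, on either strand, to any of 7 short motifs, namely the GATA factor motif as AGATAA or in the form TGATAA, the E-box as CACGTG, in the form CAGGTG or in the form CAGCTG, the TATA box as TATAAA and the GC box as GGGCGG. The windows run 5' to 3' and lie at chr4:41256678-41256977 for UCHL1, chr4:165378758-165379057 for CPE and chr12:85874045-85874344 for NTS, all on the plus strand of GRCh38.p14.
UCHL1: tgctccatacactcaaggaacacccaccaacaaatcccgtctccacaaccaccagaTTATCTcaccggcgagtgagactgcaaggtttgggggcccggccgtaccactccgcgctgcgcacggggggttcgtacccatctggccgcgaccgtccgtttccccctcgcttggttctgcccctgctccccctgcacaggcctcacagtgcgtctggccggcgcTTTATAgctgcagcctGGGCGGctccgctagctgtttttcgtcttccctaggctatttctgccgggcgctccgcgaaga
CPE: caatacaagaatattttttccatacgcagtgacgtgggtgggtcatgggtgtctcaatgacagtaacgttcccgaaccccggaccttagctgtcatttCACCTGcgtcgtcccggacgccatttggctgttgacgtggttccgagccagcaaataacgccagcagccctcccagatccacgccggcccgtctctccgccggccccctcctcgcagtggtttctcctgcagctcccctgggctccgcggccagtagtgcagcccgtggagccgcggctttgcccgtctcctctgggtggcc
NTS: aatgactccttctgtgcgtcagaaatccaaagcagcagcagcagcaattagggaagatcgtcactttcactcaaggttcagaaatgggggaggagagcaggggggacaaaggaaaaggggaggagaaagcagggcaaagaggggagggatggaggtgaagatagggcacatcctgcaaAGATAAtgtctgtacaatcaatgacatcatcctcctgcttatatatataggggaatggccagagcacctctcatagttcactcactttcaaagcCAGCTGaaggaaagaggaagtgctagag

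The UCHL1 window held AGATAA 194 bases, TATAAA 29 bases and GGGCGG 13 bases before the start. The CPE window held CAGGTG 152 bases before it, and the NTS window AGATAA 72 bases before it and CAGCTG after it. None of these matches overlapped another. Over all 35116 RefSeq promoter windows of this length, AGATAA was in 10.3%, TATAAA in 11.5%, GGGCGG in 45%, CAGGTG in 20.6%, CAGCTG in 17.9%, TGATAA in 7.53% and CACGTG in 7.26%. CpG dinucleotides stood at 0.87 of the number that base composition gives in the UCHL1 window and at 0.849 in the CPE window, above the median of all windows (0.579), and at 0.121 in the NTS window, below it. NREP has 6 windows and LMO3 has 5, and counts per gene do not show which of these starts was used. The 6 windows of NREP held GGGCGG at 2 places in 1 window, CAGGTG in 1 and TGATAA with TATAAA in 1. The 5 windows of LMO3 held CAGGTG and CAGCTG in 1 and GGGCGG in 1. CpG values ran from 0.0649 to 0.892 over the windows of NREP and from 0.26 to 0.811 over those of LMO3, on both sides of the median. A match describes these letters and shows no binding.

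The knockdown and control libraries of each line did not overlap in NUDT21, and depth was even. Libraries held 15843012 to 18426619 counts. NUDT21 stood at 135, 136 and 142 CPM (counts scaled by library size) in MUTZ-1 shNUDT21 libraries, against 301, 297 and 301 CPM in MUTZ-1 control libraries, and at 131, 132 and 129 CPM in SKM-1 shNUDT21 libraries, against 322, 336 and 343 CPM in SKM-1 control libraries. The knockdown left 46.1% of the control level in MUTZ-1 and 39.2% in SKM-1. In MUTZ-1, 49.0% of the genes tested passed an adjusted p of 0.05 (24.4% higher and 24.6% lower after knockdown). In SKM-1 84.4% passed (42.1% higher and 42.3% lower), and the groups did not overlap for 84.6% of genes. When libraries were scaled by their totals alone, 4056 genes were higher and 2626 lower in MUTZ-1, in place of 3324 and 3356. In SKM-1 they were 5263 and 6180, in place of 5735 and 5765.

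**Figure D1:**
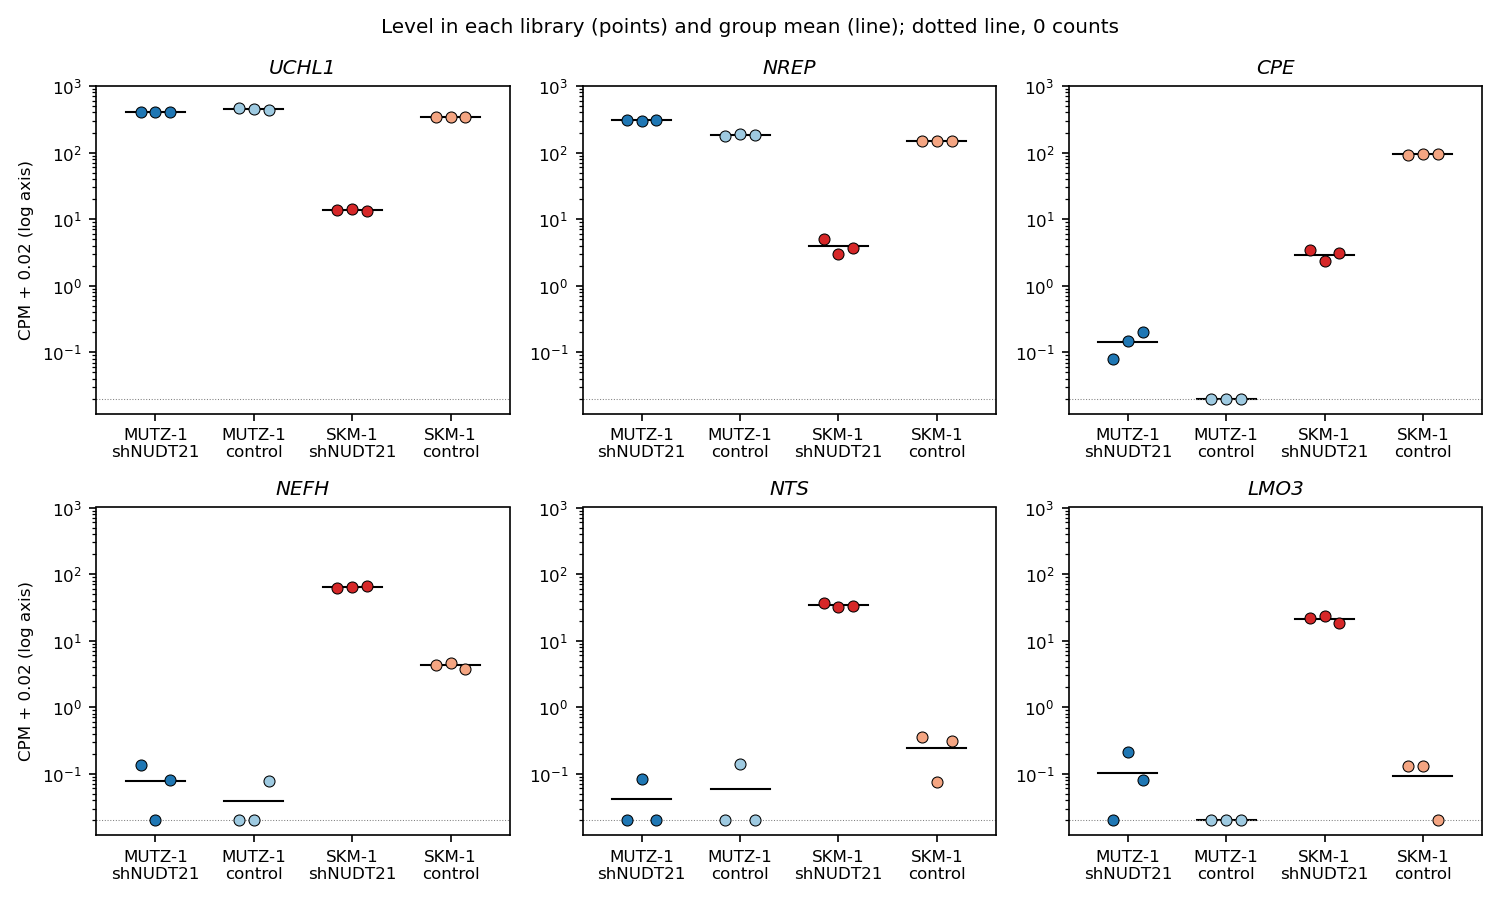
Level of each of the 6 genes in every library, as CPM + 0.02 on a log axis; points are libraries, black lines are means of 3 libraries, and the dotted line marks 0 counts. UCHL1 and NREP stood above 100 CPM in MUTZ-1 shNUDT21, MUTZ-1 control and SKM-1 control and below 15 CPM in SKM-1 shNUDT21, while NEFH, NTS and LMO3 were near 0 in both MUTZ-1 groups and above 15 CPM in SKM-1 shNUDT21.

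The ubiquitin hydrolase gene UCHL1 was highly expressed in every group but SKM-1 shNUDT21. In MUTZ-1 it had 410, 408 and 407 CPM in shNUDT21 libraries, against 462, 457 and 431 CPM in control libraries. All 3 knockdown libraries lay below all 3 controls (groups did not overlap for 53.6% of all genes tested in MUTZ-1), and the log2 fold change was -0.14 ± 0.02 (SE, adjusted p = 6.96e-08), so that 90.8% of the control level was left. In SKM-1 it had 13.8, 14.4 and 13.3 CPM in shNUDT21 libraries, against 341, 345 and 348 CPM in control libraries. The groups were far apart, with 4.01% of the control level left, a level 24.9-fold lower (log2 fold change -4.64 ± 0.04, SE). Here and below, the SE is derived from the F statistic of the test. Where a change is large, it can be smaller than the counting error. In these bulk samples, fewer cells with a transcript and less of it per cell cannot be told apart. Between the lines, the SKM-1 level was 0.767 of the MUTZ-1 level in control cells and 0.0339 of it in shNUDT21 cells.

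NREP was higher after knockdown in MUTZ-1 and lower after knockdown in SKM-1. In MUTZ-1 it had 306, 301 and 304 CPM in shNUDT21 libraries, against 180, 187 and 186 CPM in control libraries. The rise to 304 ± 2.61 CPM in shNUDT21, against 184 ± 4.02 CPM in control (SD, n = 3 each), was 1.65-fold (log2 fold change 0.72 ± 0.03, SE, adjusted p = 5.32e-62). The groups did not overlap, as was so for 53.6% of all genes tested in MUTZ-1. In SKM-1 it had 5.01, 2.99 and 3.72 CPM in shNUDT21 libraries, against 151, 148 and 151 CPM in control libraries. This left 2.59% of the control level, 38.5-fold lower (log2 fold change -5.27 ± 0.06, SE). The knockdown effect of SKM-1 minus that of MUTZ-1 was -5.99 ± 0.07 for NREP and -4.50 ± 0.05 for UCHL1 on the log2 scale (SE), given without a test because the SKM-1 values chose the genes.

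The prohormone-trimming enzyme gene CPE was highest in SKM-1 control cells. It had 3.38, 2.33 and 3.04 CPM in SKM-1 shNUDT21 libraries, against 91.9, 95.3 and 93.9 CPM in SKM-1 control libraries, which is 32.2-fold lower (log2 fold change -5.01 ± 0.09, SE) and left 3.11%. Like UCHL1 and NREP, it kept a few percent of its control level. This is not particular to these genes, and ELAVL2, for example, had 1.9 CPM in SKM-1 shNUDT21 and 45.3 CPM in SKM-1 control. In MUTZ-1 shNUDT21 libraries it had 1, 2 and 3 reads, against 0 in each MUTZ-1 control library. Against a floor of 3 reads over the control group, which covers counting error only, this is at least 2.1-fold higher (adjusted p = 0.0084), at a mean of 0.121 CPM. CPE passed the count filter only through its SKM-1 reads, so this p depends in part on the line that chose the gene. The call was absent in 1 of the 13 alternative settings that could test it, where log2(FPKM + 1) gave an adjusted p of 0.43. With only the 6 libraries of MUTZ-1, CPE had too few reads to be tested. In control cells, the SKM-1 level was at least 1630-fold higher than the MUTZ-1 level, and in shNUDT21 cells it was 24.0-fold higher.

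The neurofilament gene NEFH was present in SKM-1 control cells and higher after knockdown. It had 62.6, 64.6 and 65.1 CPM in SKM-1 shNUDT21 libraries, against 4.27, 4.61 and 3.79 CPM in SKM-1 control libraries, a 15.2-fold higher level (log2 fold change 3.92 ± 0.10, SE). The 2 groups did not overlap, as was so for 84.6% of all genes tested in SKM-1, and the replicates of each were close together. In MUTZ-1 it had 2, 0 and 1 reads in shNUDT21 libraries, against 0, 0 and 1 reads in control libraries. Both groups were at or under the floor of 3 reads, so no fold is given (adjusted p = 0.395). The SKM-1 over MUTZ-1 ratio was 1060 in shNUDT21 cells (95% interval of the counts 362 to 5140) and 220 in control cells (39.2 to 8750).

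NTS, the neurotensin precursor, had at most 6 reads in any library outside SKM-1 shNUDT21. It had 37.0, 31.9 and 33.2 CPM in SKM-1 shNUDT21 libraries, against 6, 1 and 5 reads in the SKM-1 control libraries, or 0.337, 0.0543 and 0.287 CPM. The level was 152-fold higher (log2 fold change 7.20 ± 0.21, SE), the second highest fitted change of all genes tested. With 12 reads over the SKM-1 control libraries, the SE understates the counting error. In MUTZ-1 it had 0, 1 and 0 reads in shNUDT21 libraries, against 0, 2 and 0 reads in control libraries, and a change was not detectable at this depth (adjusted p = 0.706). In shNUDT21 cells the SKM-1 over MUTZ-1 ratio was 1690 (95% interval of the counts 302 to 66700), and in control cells it was 5.83 (1.3 to 53.6).

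LMO3, the LIM-only cofactor, had the highest fitted change of all genes tested in SKM-1. It had 21.9, 23.7 and 18.4 CPM in SKM-1 shNUDT21 libraries, against 2, 2 and 0 reads in SKM-1 control libraries (mean 0.0736 CPM). The level was 287-fold higher (log2 fold change 8.03 ± 0.28, SE), and the mean in SKM-1 shNUDT21 was 265-fold that in MUTZ-1 shNUDT21. With 4 reads over the SKM-1 control libraries, the SE understates the counting error. In MUTZ-1 it had 0, 3 and 1 reads in shNUDT21 libraries, against 0 in each control library. Against the same floor this is at least 1.4-fold higher, with an adjusted p of 0.0425, but the groups share the value 0. LMO3 too passed the count filter only through its SKM-1 reads. The call was lost in 8 of the 13 alternative settings that could test it. With only the 6 libraries of MUTZ-1, LMO3 had too few reads to be tested. Without MUTZ-1 shNUDT21 library 2 the adjusted p was 0.286, without library 3 it was 0.0529, and without any 1 of the control libraries it was 0.0818 to 0.0856. MGST1, which overlaps LMO3, had 94.0 CPM in SKM-1 shNUDT21 and 17.2 CPM in SKM-1 control, and 79.9 CPM in MUTZ-1 shNUDT21 and 80.9 CPM in MUTZ-1 control. LMO3 had at most 3 reads in any MUTZ-1 library, where MGST1 was near 80 CPM, and both genes were higher in SKM-1 shNUDT21 than in SKM-1 control. Whether reads of MGST1 entered the LMO3 counts was not tested.

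Of the 6 genes in MUTZ-1, 3 (NREP, CPE and LMO3) were called higher and 1 (UCHL1) lower, and 2 (NEFH and NTS) were not called, where 49.0% of all genes tested were called (24.4% higher and 24.6% lower). Only UCHL1 and NREP had enough counts in MUTZ-1 to enter a test of that line by itself. The other 4 were tested through their SKM-1 counts, so the number of calls says nothing about the set. In SKM-1 all 6 were past 15-fold, a threshold set after the values were seen, just under the smallest of them. Past it, 36 genes were higher (0.264% of those tested) and 1015 were lower (7.45%). By fitted change, LMO3, NTS and NEFH came first, second and 36th from the top, and NREP, CPE and UCHL1 were 327th, 450th and 656th from the bottom.

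**Figure D2:**
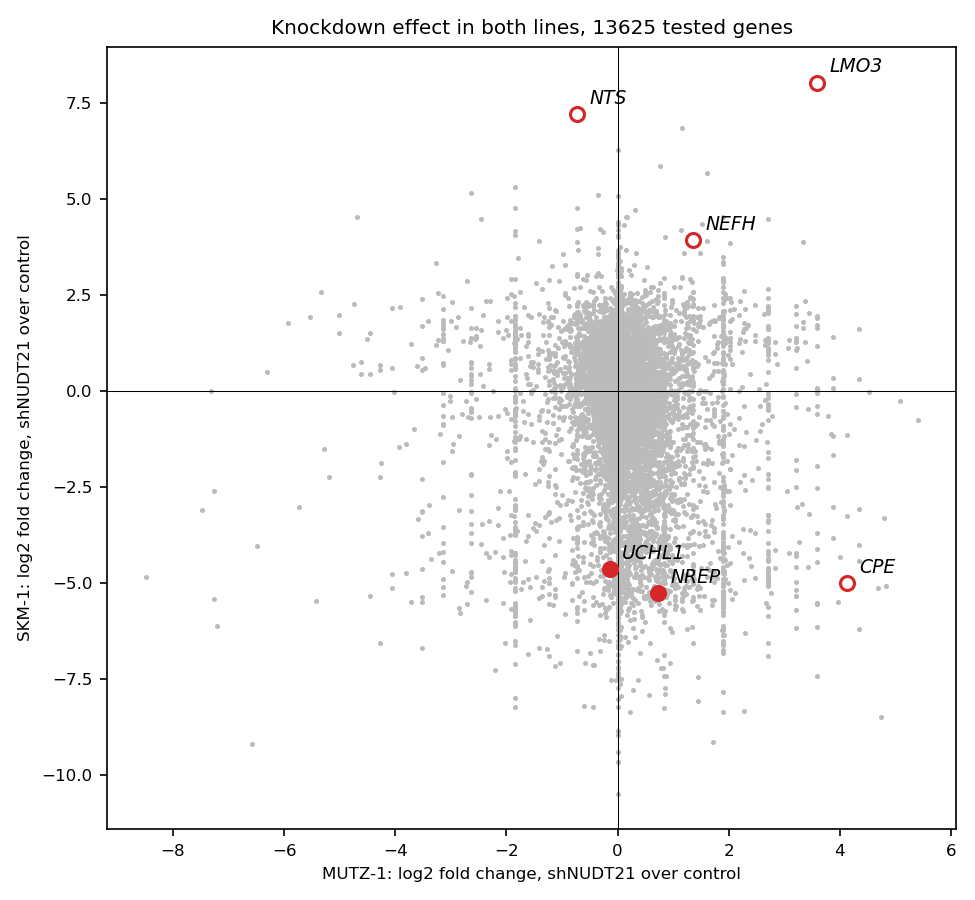
Log2 fold change after knockdown (shNUDT21 over control) in MUTZ-1 on the horizontal axis and in SKM-1 on the vertical axis; grey points are the 13625 genes tested and red circles the 6 genes, filled for UCHL1 and NREP, which had ample counts in both lines. Open circles mark genes with few or no reads in MUTZ-1, whose horizontal position depends on the fitted prior count and is no measured fold; on the vertical axis LMO3, NTS and NEFH stand high and UCHL1, CPE and NREP low.

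Levels of different genes can be set side by side only per length, in FPKM (fragments per kilobase of transcript, scaled by depth). In SKM-1 shNUDT21 cells the order was NTS (27.4 ± 2.16 FPKM), NEFH (18.8 ± 0.409), UCHL1 (12.5 ± 0.456), LMO3 (3.79 ± 0.47), CPE (1.13 ± 0.208) and NREP (1.04 ± 0.272), all as mean ± SD over 3 libraries. CPE and NREP overlapped in their libraries, and the other neighbours in this order did not. In SKM-1 control cells the order was UCHL1 (329 ± 2.8 FPKM), NREP (42.1 ± 0.455), CPE (38.3 ± 0.666), NEFH (1.31 ± 0.129), NTS (0.192 ± 0.129) and LMO3 (0.0138 ± 0.012), with no overlap between neighbours. The 3 genes that led in control cells were thus at the bottom or in the middle after knockdown. In MUTZ-1 only a pair of the genes was clearly present, UCHL1 at 367 ± 0.939 FPKM in shNUDT21 cells and 391 ± 14.2 FPKM in control cells, and NREP at 80.1 ± 0.662 FPKM in shNUDT21 cells and 47.0 ± 0.994 FPKM in control cells.

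The genes whose pattern was most like each of the 6 were ranked by Pearson's r of log2(CPM + 0.5) over the 12 libraries, among 3672 genes with at least 5 CPM in 1 group and a range of at least 4-fold. The libraries fall into 4 groups, so r mostly ranks the similarity of 4 group means, and it carries no p. For UCHL1 the nearest were CPNE2 (r = 0.9990), PHGDH (0.9990), the first enzyme of serine synthesis, and SLAIN1 (0.9987). PHGDH had 494 CPM in MUTZ-1 shNUDT21, 481 CPM in MUTZ-1 control, 26.1 CPM in SKM-1 shNUDT21 and 390 CPM in SKM-1 control. For NREP they were ABLIM1 (0.9989), RECK (0.9980) and SORBS2 (0.9973). For CPE they were SCML1 (0.9995), the growth factor binding protein gene IGFBP2 (0.9994) and HOXD4 (0.9992), all near 0 in MUTZ-1. NEFH was most like HK1, a hexokinase gene (0.9990), HIC2 (0.9985) and PNMT, the enzyme that makes adrenaline (0.9984). PNMT had 18.6 CPM in SKM-1 shNUDT21 and 2.51 CPM in SKM-1 control cells. NTS and LMO3 were among each other's 3 nearest (0.9940), and both were also near SLC6A15, an amino acid transporter gene of brain (0.9978 with NTS and 0.9940 with LMO3). NTS and LMO3 were both chosen by their rise in SKM-1, so their nearness to each other is in part given by the choice. FAM78A (0.9951) completed the list for NTS, and CHST2 (0.9941) that for LMO3. As r does not weigh level or size of change, some of these genes were not near 0 in any group. FAM78A had 274 CPM in SKM-1 shNUDT21 and 78.7 CPM in SKM-1 control. Its MUTZ-1 levels were 63.8 CPM in shNUDT21 and 68.6 CPM in control. CHST2 had 86.8 CPM in SKM-1 shNUDT21 and 24.4 CPM in SKM-1 control. HK1 had 74.4 CPM in MUTZ-1 shNUDT21 and 64.0 CPM in MUTZ-1 control.

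Broader neuronal markers did not follow one direction. Of 24 pan-neuronal markers in the table, 11 were tested. In SKM-1, 3 of these rose and 6 fell, with a median log2 fold change of -3.17 (0.00 over all genes tested). Leaving out the 1 gene with at most 3 reads in both groups, the median was -3.41. The called share of 81.8% was near the 84.4% of all genes tested (42.1% higher and 42.3% lower). These shares, and 49.0% in MUTZ-1, are the background for every list and set of neighbours below. TUBB3 (log2 fold change 0.41 ± 0.09, SE), SYP (0.90 ± 0.15) and SYN1 (1.99 ± 0.50) rose in SKM-1. The neuronal RNA-binding protein gene ELAVL2 fell to 1.9 ± 0.453 CPM in SKM-1 shNUDT21, against 45.3 ± 1.93 CPM in SKM-1 control (SD, n = 3 each; log2 fold change -4.57 ± 0.13, SE, adjusted p = 2.8e-89), and the vesicle fusion gene SNAP25 to 2.07 ± 0.557 CPM in SKM-1 shNUDT21, against 46.0 ± 0.664 CPM in SKM-1 control (adjusted p = 4.25e-88). CAMK2B, a calcium-dependent kinase subunit of synapses, fell to 0.452 ± 0.253 CPM in SKM-1 shNUDT21, against 5.69 ± 0.983 CPM in SKM-1 control. In MUTZ-1, 3 of the 11 rose and 1 fell, with a median of 0.43 (0.63 over the 8 genes with more than 3 reads in 1 of the groups). CAMK2B and the postsynaptic scaffold gene DLG4 rose (log2 fold change 1.57 ± 0.37 and 0.83 ± 0.09, SE), and so did MAPT, the gene of tau (0.43 ± 0.16), whose call was lost without MUTZ-1 control library 1 (adjusted p = 0.1). The neuronal tubulin gene TUBB3 fell by 0.34 ± 0.04 on the log2 scale. Summed over the 24 markers, the level was 47.8 to 51.0 CPM in SKM-1 shNUDT21 and 156 to 163 CPM in SKM-1 control libraries, and 154 to 158 CPM in MUTZ-1 shNUDT21 and 173 to 181 CPM in MUTZ-1 control libraries. The defining markers STMN2, RBFOX3 and ELAVL4 had no read in SKM-1 shNUDT21, and they were already at 1, 0 and 0 reads over the SKM-1 control libraries.

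Neuroendocrine markers were split as well. Of 17 in the table, 7 were tested. In SKM-1, 2 of these rose and 3 fell (median log2 fold change -0.47, or -0.22 without the 1 gene with at most 3 reads in both groups). The called share was 71.4%, against 84.4% of all genes tested. SCG2 rose, with 52 reads in SKM-1 shNUDT21 and 17 in SKM-1 control (adjusted p = 0.000292). SCG3, a granin of secretory granules, rose to 218 ± 4.03 CPM in SKM-1 shNUDT21, against 101 ± 3.38 CPM in SKM-1 control (log2 fold change 1.11 ± 0.04, SE, adjusted p = 1.36e-79). The vesicle GTPase gene RAB3A fell to 5.73 ± 0.481 CPM in SKM-1 shNUDT21, against 19.6 ± 1.11 CPM in SKM-1 control, and the neuronal enolase gene ENO2 to 36.7 ± 2.02 CPM in SKM-1 shNUDT21, against 51.0 ± 1.06 CPM in SKM-1 control. In MUTZ-1, 3 of the 7 rose and the other 4 did not pass (median 0.43). ENO2 rose to 3.54 ± 0.896 CPM in MUTZ-1 shNUDT21, against 0.324 ± 0.137 CPM in MUTZ-1 control (adjusted p = 6.12e-26), and RAB3A to 18.5 ± 2.16 CPM in MUTZ-1 shNUDT21, against 13.7 ± 1.06 CPM in MUTZ-1 control. SCG3 had 12 reads in the 3 MUTZ-1 shNUDT21 libraries and 1 read in the 3 MUTZ-1 control libraries (adjusted p = 0.00235, or 0.0528 with log2(FPKM + 1)). CHGA and INSM1, defining neuroendocrine genes, had no read in SKM-1 shNUDT21 or in either MUTZ-1 group, and only 2 reads each over the SKM-1 control libraries.

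**Figure D3:**
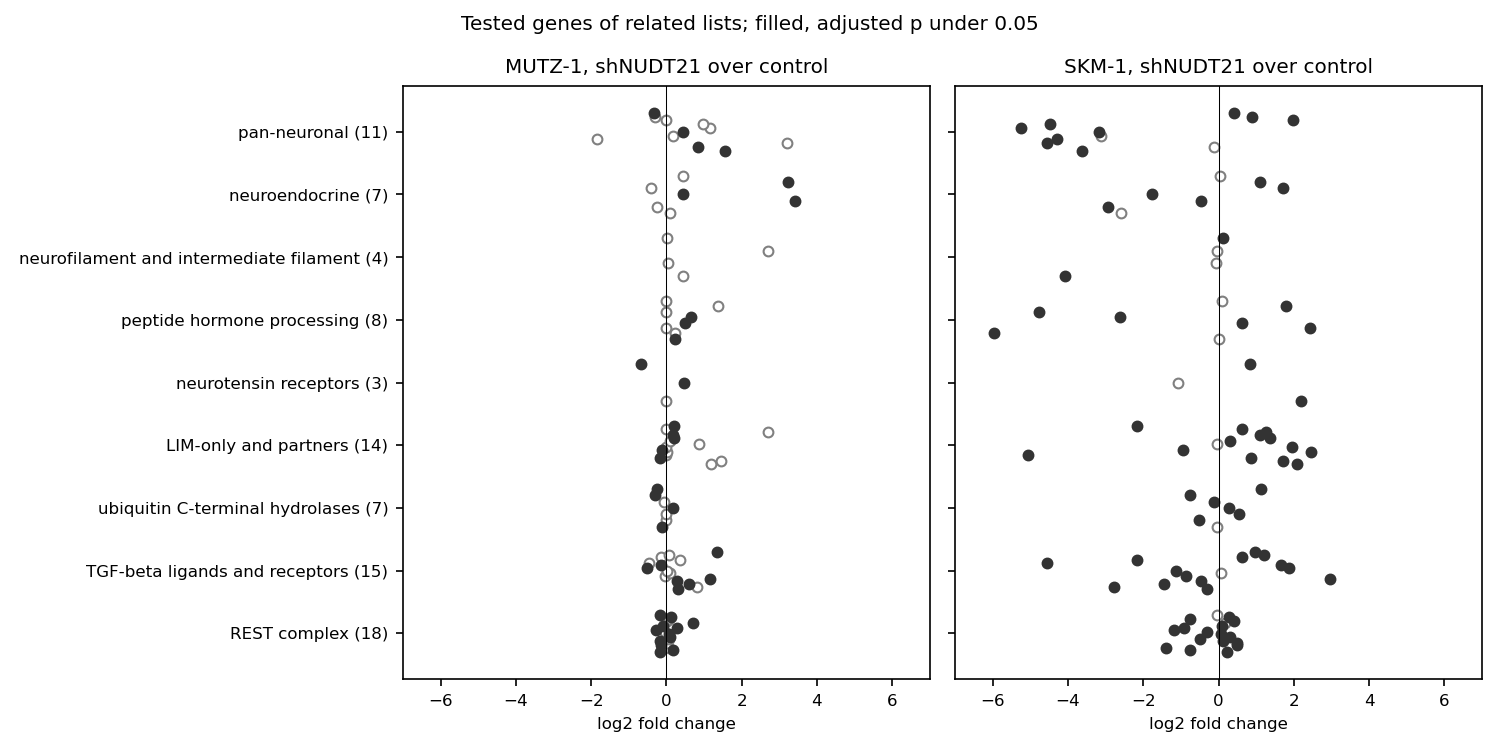
Log2 fold change after knockdown (shNUDT21 over control) for the tested genes of 9 related lists, in MUTZ-1 on the left and SKM-1 on the right; each circle is 1 gene, filled where the adjusted p is under 0.05, and the number tested is in parentheses. In SKM-1, pan-neuronal genes were on both sides of 0 (3 rose and 6 fell), and 10 of the 14 genes of the LIM-only list rose.

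Of the partners of NEFH, the light chain NEFL went the other way in SKM-1. It fell to 2.11 ± 0.276 CPM in SKM-1 shNUDT21, against 36.0 ± 1.55 CPM in SKM-1 control (SD, n = 3 each; log2 fold change -4.09 ± 0.13, SE, adjusted p = 7.48e-78). NEFM had 0 reads in SKM-1 shNUDT21 and 1 read in SKM-1 control, and INA had 4 reads in SKM-1 shNUDT21 and 17 in SKM-1 control, so that neither was tested. The 4 tested genes of this list otherwise gave 1 rise, of VIM to 1120 ± 4.89 CPM in SKM-1 shNUDT21, against 1030 ± 17.2 CPM in SKM-1 control, a call lost with scaling by library totals alone (adjusted p = 0.112) and with log2(FPKM + 1) (0.724). In MUTZ-1, 0 of the 4 passed the edgeR test, 0 passed DESeq2, and 0 had an unadjusted p under 0.05. NEFL had 4 reads in shNUDT21 and 3 in control.

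Enzymes that act with CPE were mixed. Of 8 tested genes for peptide hormone processing, 3 rose and 3 fell in SKM-1 (median log2 fold change 0.05). PAM, which amidates peptides, fell to 26.9 ± 1.01 CPM in SKM-1 shNUDT21, against 164 ± 2.79 CPM in SKM-1 control (adjusted p = 2.3e-121). PCSK1N, an inhibitor of the convertase PCSK1, fell to 0.986 ± 0.201 CPM in SKM-1 shNUDT21, against 26.8 ± 1.61 CPM in SKM-1 control, and the carboxypeptidase M gene (whose symbol is also CPM) to 0.288 ± 0.0988 CPM in SKM-1 shNUDT21, against 18.3 ± 0.957 CPM in SKM-1 control. Another carboxypeptidase gene, CPZ, rose to 3.42 ± 0.74 CPM in SKM-1 shNUDT21, against 0.635 ± 0.0806 CPM in SKM-1 control. PCSK2 had 0 reads in SKM-1 shNUDT21 and 4 in SKM-1 control and was not tested. In MUTZ-1, 3 of the 8 rose and the other 5 did not pass (median 0.24, or 0.36 over the 6 genes with more than 3 reads in 1 of the groups). PAM rose to 16.4 ± 1.62 CPM in MUTZ-1 shNUDT21, against 10.4 ± 0.938 CPM in MUTZ-1 control, and the convertase gene FURIN to 27.0 ± 0.848 CPM in MUTZ-1 shNUDT21, against 19.2 ± 0.523 CPM in MUTZ-1 control.

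Receptors for the NTS product were present in part. SORT1, the sorting receptor that binds neurotensin, rose to 270 ± 6.48 CPM in SKM-1 shNUDT21, against 152 ± 2.82 CPM in SKM-1 control (adjusted p = 1.07e-67), and fell to 6.11 ± 0.146 CPM in MUTZ-1 shNUDT21, against 9.77 ± 1.22 CPM in MUTZ-1 control (adjusted p = 5.95e-09). NTSR1, the G-protein-coupled receptor, had 10 reads in SKM-1 shNUDT21 and 6 in SKM-1 control, 0 in both MUTZ-1 groups, and was not tested. Of the 3 tested genes of this list, 2 rose in SKM-1 and the other did not pass, and 1 rose and 1 fell in MUTZ-1. SORCS1, a relative of SORT1, rose to 11.1 ± 0.668 CPM in SKM-1 shNUDT21, against 2.42 ± 0.303 CPM in SKM-1 control. In MUTZ-1, SORL1 rose to 180 ± 0.193 CPM in MUTZ-1 shNUDT21, against 131 ± 4.05 CPM in MUTZ-1 control.

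The LIM-only family and its partners in blood cells rose for the most part in SKM-1. Of 14 tested genes, 10 rose and 3 fell there (median log2 fold change 0.98), at a background of 84.4% called. LMO2 rose to 64.4 ± 2.21 CPM in SKM-1 shNUDT21, against 11.7 ± 0.136 CPM in SKM-1 control (adjusted p = 5.08e-63), and its partner LDB1 to 349 ± 4.03 CPM in SKM-1 shNUDT21, against 191 ± 5.88 CPM in SKM-1 control. The erythroid factor GATA1 rose to 270 ± 8.86 CPM in SKM-1 shNUDT21, against 64.0 ± 1.56 CPM in SKM-1 control. LDB2 fell to 0.798 ± 0.0433 CPM in SKM-1 shNUDT21, against 26.9 ± 0.2 CPM in SKM-1 control, and TCF4, an E-box-binding factor, to 40.7 ± 3.2 CPM in SKM-1 shNUDT21, against 182 ± 3.99 CPM in SKM-1 control. In MUTZ-1, 3 of the 14 rose and 2 fell (5 and 1 with scaling by library totals). LDB1 fell to 156 ± 1.97 CPM in MUTZ-1 shNUDT21, against 176 ± 3.54 CPM in MUTZ-1 control. LMO2 had 23 reads in MUTZ-1 shNUDT21 and 24 in MUTZ-1 control.

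Relatives of UCHL1 went in both directions. Of 7 tested genes for ubiquitin and its C-terminal hydrolases, 3 rose and 3 fell in SKM-1, and 1 rose and 3 fell in MUTZ-1 (3 and 2 with scaling by library totals), with median log2 fold changes of -0.03 in SKM-1 and -0.07 in MUTZ-1. UCHL3 fell to 38.5 ± 3.03 CPM in SKM-1 shNUDT21, against 65.1 ± 1.79 CPM in SKM-1 control, and to 61.6 ± 2.68 CPM in MUTZ-1 shNUDT21, against 76.3 ± 2.76 CPM in MUTZ-1 control. UCHL5, a hydrolase of the proteasome, rose to 197 ± 4.52 CPM in SKM-1 shNUDT21, against 90.5 ± 1.24 CPM in SKM-1 control, and fell to 109 ± 1.16 CPM in MUTZ-1 shNUDT21, against 129 ± 3.25 CPM in MUTZ-1 control.

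For NREP, the TGF-beta genes were examined. Of 15 tested, 6 rose and 8 fell in SKM-1, and 5 rose and 2 fell in MUTZ-1, where the number that fell was 0 to 2 in other settings. The median log2 fold change was -0.32 in SKM-1 and 0.09 in MUTZ-1 (0.18 over the 14 genes with more than 3 reads in 1 of the groups). TGFB1 rose to 186 ± 5.42 CPM in SKM-1 shNUDT21, against 58.7 ± 2.71 CPM in SKM-1 control (adjusted p = 5.19e-100). TGFB2 fell to 2.05 ± 0.218 CPM in SKM-1 shNUDT21, against 48.1 ± 1.74 CPM in SKM-1 control, and TGFB3 to 2.93 ± 0.21 CPM in SKM-1 shNUDT21, against 13.3 ± 0.541 CPM in SKM-1 control.

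REST, the repressor that keeps neuronal genes off in other cells, fell to 35.6 ± 0.761 CPM in SKM-1 shNUDT21, against 60.4 ± 2.1 CPM in SKM-1 control (log2 fold change -0.76 ± 0.05, SE, adjusted p = 8.3e-34). In MUTZ-1 it had 63.4 ± 1.61 CPM in shNUDT21 and 60.7 ± 1.2 CPM in control (0.06 ± 0.05, adjusted p = 0.28, or 0.0409 with scaling by library totals). Of 18 tested genes of the REST complex, 9 rose and 7 fell in SKM-1 (median log2 fold change 0.08), and 6 rose and 6 fell in MUTZ-1 (2 fell without shNUDT21 library 1). CTDSPL, a phosphatase, fell to 30.6 ± 0.501 CPM in SKM-1 shNUDT21, against 80.3 ± 3.08 CPM in SKM-1 control.

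The 5 nearest tested genes on each side of each gene were examined along the chromosome. Around CPE, 9 of 10 fell in SKM-1 and the other did not pass the edgeR test, with a median log2 fold change of -2.42, against -0.40 over the tested genes of chromosome 4. MSMO1, a cholesterol synthesis gene on one side, fell to 25.7 CPM in SKM-1 shNUDT21, against 115 CPM in SKM-1 control. The nearest on the other side, DDX60, lies 2.718 Mb away and fell to 0.0399 CPM in SKM-1 shNUDT21, against 1.37 CPM in SKM-1 control. In MUTZ-1, where CPE was near 0, 2 of the same 10 rose and 4 fell. Around UCHL1, on the same chromosome, 5 rose and 5 fell in SKM-1, and its neighbours APBB2 and LIMCH1 fell (log2 fold change -3.07 ± 0.13 and -4.15 ± 0.24, SE). Around NREP, 7 of 10 rose and 1 fell in SKM-1, and the nearest were STARD4, which fell by 0.84 ± 0.04, and EPB41L4A, which rose by 0.96 ± 0.15 on the log2 scale (SE). Around NEFH, 3 rose and 5 fell, and its nearest neighbours were AP1B1, with a log2 fold change of -0.06 ± 0.03 (SE) that did not pass, and THOC5 (0.54 ± 0.04).

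Around NTS, 3 of 10 rose and 6 fell in SKM-1 (median log2 fold change -0.78). Its neighbour RASSF9 rose to 1.1 CPM in SKM-1 shNUDT21, against 0.0934 CPM in SKM-1 control, and MGAT4C on the other side fell to 0.288 CPM in SKM-1 shNUDT21, against 14.7 CPM in SKM-1 control. SLC6A15, 0.961 Mb from NTS, rose to 6.33 CPM in SKM-1 shNUDT21, against 0.0762 CPM in SKM-1 control, and had no read in MUTZ-1. Around LMO3, 4 rose and 6 fell (median -0.71), and the nearest were MGST1, given above, and PIK3C2G, which fell to 0.123 CPM in SKM-1 shNUDT21, against 0.763 CPM in SKM-1 control. Medians over whole chromosomes ran between -1.09 and 0.47 in SKM-1 and between -0.02 and 0.03 in MUTZ-1.

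**Figure D4:**
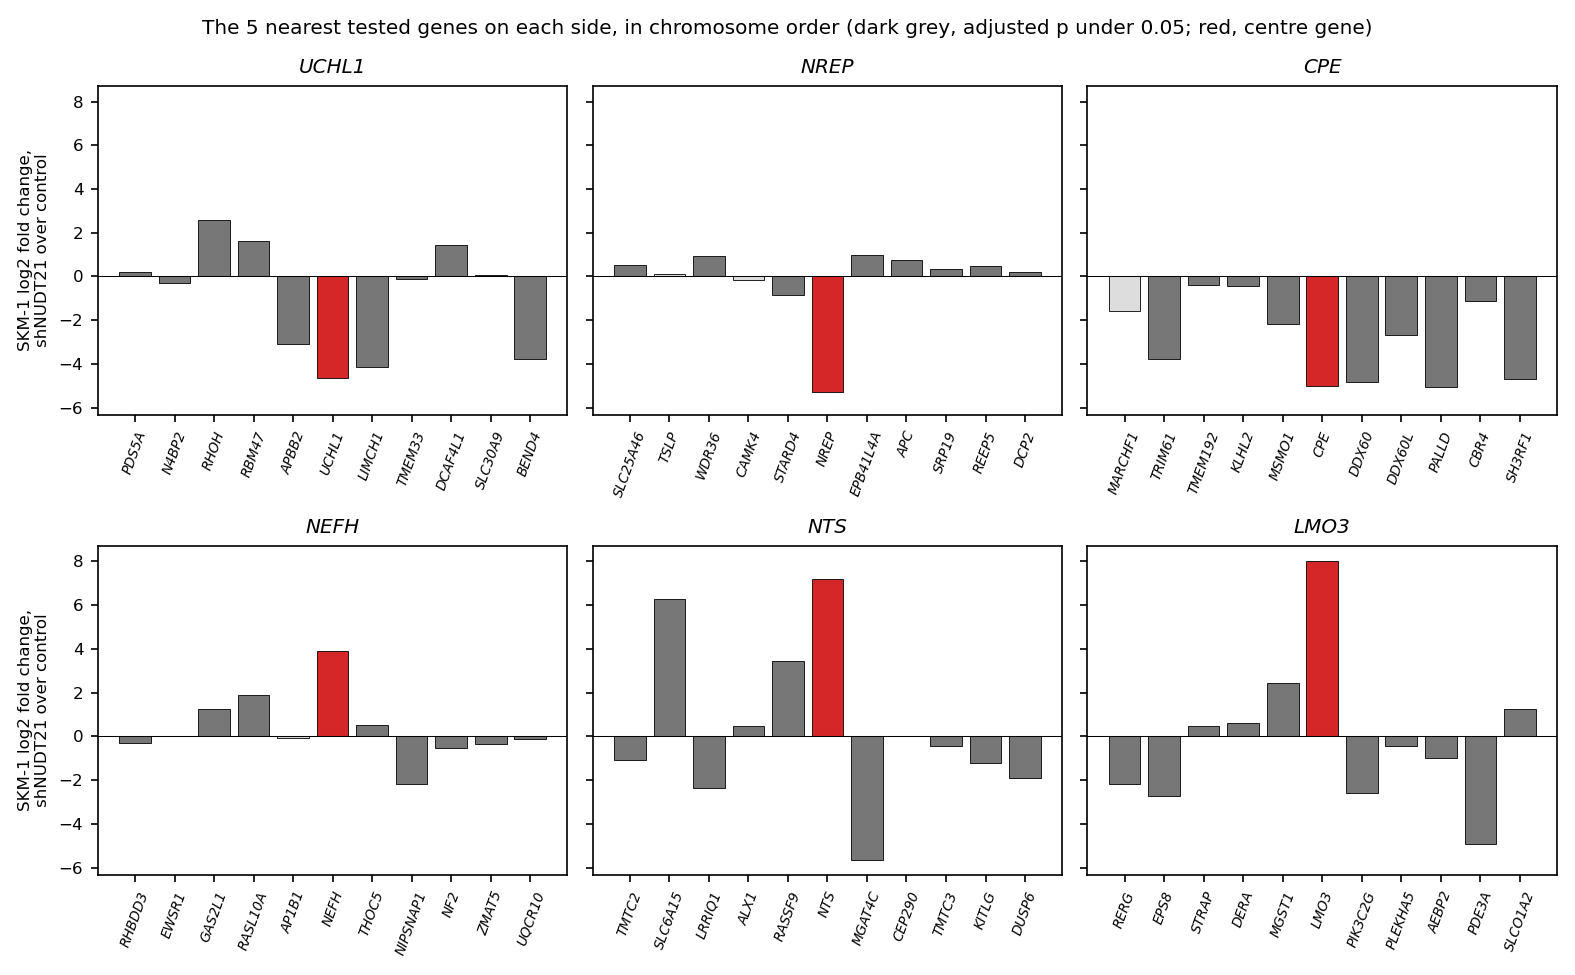
Log2 fold change in SKM-1 (shNUDT21 over control) of each of the 6 genes (red) and of the 5 nearest tested genes on each side in chromosome order (dark grey where the adjusted p is under 0.05, light grey otherwise). All 10 neighbours of CPE are below 0, with 9 called lower, while the neighbours of the other 5 genes lie on both sides.

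Markers of other cell types also moved in SKM-1, where 84.4% of all genes tested were called (42.1% higher and 42.3% lower), against 49.0% in MUTZ-1. All 14 erythroid markers tested rose, and their summed level was 4480 to 4810 CPM in SKM-1 shNUDT21 and 1210 CPM in each SKM-1 control library, against which MUTZ-1 shNUDT21 had 301 to 306 CPM and MUTZ-1 control 730 to 752 CPM. In MUTZ-1, 2 of the 14 rose (1 to 4 in other settings) and 1 fell. Of 10 tested general and myeloid blood cell markers, 7 rose and 2 fell in SKM-1, with sums of 617 to 628 CPM in shNUDT21 and 332 to 339 CPM in control. CD34 had no read in either SKM-1 group, and MPO none in SKM-1 shNUDT21. In MUTZ-1, 2 of the 10 rose and 4 fell, and these sums were 2840 to 2890 CPM in shNUDT21 and 2990 to 3010 CPM in control. Of 10 tested B-cell markers, 1 rose and 3 fell in SKM-1, and 2 rose and 5 fell in MUTZ-1. They summed to 10.6 to 12 CPM in SKM-1 shNUDT21 and 11.0 to 16.3 CPM in SKM-1 control, and to 1710 to 1760 CPM in MUTZ-1 shNUDT21 and 2040 to 2050 CPM in MUTZ-1 control. Fibroblast markers summed to 14.1 to 17.2 CPM in SKM-1 shNUDT21 and 66.7 to 72.3 CPM in SKM-1 control (2 of 6 tested rose and 4 fell), with THY1 at 0 in all groups, and to under 2 CPM in every MUTZ-1 library, where 1 of the 6 rose (0 in some settings) and 1 fell. Of 3 tested glial markers, 1 rose and 2 fell in SKM-1, where 1 fell in most other settings, and 1 rose and 1 fell in MUTZ-1. They summed to 10.2 to 12.7 CPM in SKM-1 shNUDT21 and 6.35 to 6.72 CPM in SKM-1 control, and to 45.8 to 52.2 CPM in MUTZ-1 shNUDT21 and 50.4 to 52.9 CPM in MUTZ-1 control. The part of other cell types in the values of the 6 genes was not tested.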

How the data were processed

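RNA sequencing of 12 libraries was used, 3 for each of 4 groups, taken from the sample titles. Whole-number counts per gene for 17518 genes were deposited by the authors. Per the submitters' processing notes, fastp, HISAT2, HTSeq and the build GRCh38 were used, while their versions, the annotation and the strand setting were not given in the sources used here. A table of FPKM values was deposited by the authors too and served for levels between genes and for alternatives. Per the labels' protocols, a stranded mRNA kit was used.

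Counts were filtered with filterByExpr (13625 genes left) and scaled by TMM (factors 0.959 to 1.06) in edgeR 4.0.16 (R 4.3.3), and edgeR's robust quasi-likelihood test was applied to the 12 libraries together, with 1 coefficient for each group (8 residual degrees of freedom). P-values were Benjamini-Hochberg adjusted over all genes tested, and "rose" or "fell" means an adjusted p under 0.05. CPM values are TMM-scaled, and each SE is the absolute log2 fold change over the root of its F statistic. Where a change is large, such an SE can be smaller than the counting error. This was so for LMO3, NTS, NREP, CPE and UCHL1 in SKM-1. With 0 reads in a group, folds are bounds against 3 reads over that group; with 1 to 3 reads they carry a 95% interval. Both cover counting error only. The fit was tested on simulated data with far fewer and smaller changes, in MUTZ-1 alone, so that test does not cover the many large changes of SKM-1. Alternatives used library totals, DESeq2 1.42.0 size factors and test, no filter, limma 3.58.1 on log2(FPKM + 1) and log2(FPKM + 0.1), a replicate block, only the libraries of 1 line, and leaving out each library.

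The members and the 14 gene lists were chosen with earlier results of these data known. Named genes are, per list and line, up to 4 called genes with the largest change and a mean of at least 1 CPM, those known to act directly on a member, the 3 most alike, and the nearest tested neighbours; markers named as having no read were picked after their values were seen. Some genes that this rule names are not reported here. Positions and promoter sequences are from RefSeq (GRCh38.p14), in which 5 of the 6 members had a promoter window, NEFH being the exception.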

Additional observations from a re-analysis of the deposited data

Results flagged for a closer look

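Among the list genes chosen by the naming rule, 21 passed the edgeR test in both lines with opposite signs and also in the difference between the effects (SKM-1 minus MUTZ-1, log2 scale). The 7 of these whose log2 change was at least 0.5 in each line are given here, a limit set after the values were seen. The naming rule mostly picks genes already called in these contrasts, so the number 21 is no result about the lists. The p-values belong to genes chosen in this way, and the share over all genes tested was not counted. The difference was -5.20 ± 0.48 (SE) for the synaptic kinase gene CAMK2B (adjusted p = 2.06e-21) and -3.27 ± 0.10 for the peptide-amidating enzyme gene PAM (adjusted p = 5.75e-83). It was 1.51 ± 0.11 for the neurotensin-binding receptor gene SORT1 (adjusted p = 2.29e-30). Among TGF-beta genes it was -2.03 ± 0.10 for LTBP3 (adjusted p = 3.52e-51) and 2.37 ± 0.32 for SMAD7 (adjusted p = 1.01e-11), whose fall in MUTZ-1 was lost in most alternatives. Among cell type markers it was -5.46 ± 0.50 for PDGFRB (adjusted p = 1.58e-21), whose rise in MUTZ-1 was lost in some alternatives, and 3.12 ± 0.03 for the transferrin receptor gene TFRC (adjusted p = 9e-177). UCHL1 and NREP were not put to this test, because the SKM-1 effect chose them.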

How the results depend on the processing

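Of the 6 genes, 3 were called higher in MUTZ-1. That count was 1 with log2(FPKM + 1) and 1 when only the 6 libraries of the line were fitted, where NEFH, NTS, LMO3 and CPE had too few reads to be tested, and 2 to 3 when a library was left out. The log2 fold change in MUTZ-1 lay between -0.14 and -0.09 for UCHL1 (adjusted p at most 0.0209) and between 0.72 and 0.77 for NREP over 14 alternatives each. In SKM-1 no direction changed, and the change lay between -4.72 and -4.61 for UCHL1, -5.50 and -4.41 for NREP, -5.15 and -4.21 for CPE, 3.10 and 3.99 for NEFH, 4.58 and 7.60 for NTS, and 2.23 and 8.40 for LMO3, the smallest sizes of all but UCHL1 with log2(FPKM + 1), which understates changes of low genes. Over all genes, higher and lower calls in MUTZ-1 were 3324 and 3356, and 4056 and 2626 with library totals alone, 3817 and 2426 with log2(FPKM + 1), 3743 and 2372 with log2(FPKM + 0.1), and 3350 to 3619 and 2636 to 2765 when a library was left out. The replicate block gave 3279 and 3333 in MUTZ-1 and 5714 and 5747 in SKM-1. In SKM-1 the main fit gave 5735 and 5765, library totals alone 5263 and 6180, and no filter 5896 and 6184. Same-numbered libraries did not deviate together (r of deviations between -0.0699 and 0.00422 over 9086 genes), so the numbers do not pair them. Low reads limit what MUTZ-1 can show for NEFH, NTS, LMO3 and CPE.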
